A study of Tachycineta bicolor and Sialia sialis and Hirundo rustica with 121 samples.

Results

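Cadherins and synaptic adhesion genes encode the proteins that hold neurons to each other, to glia and to vessels, and that align the 2 sides of a synapse. They were taken as every row of a table of gene counts whose symbol belongs to the cadherins, the protocadherins, the contactins and contactin-associated proteins, the neurexins, the neuroligins, the LRRTM and SLITRK leucine-rich repeat proteins, the teneurins or the CADM (SynCAM) family. This gave 53 of the 10672 genes in the table, taken by name, in a choice made with earlier results of these data known. They comprised 1 type I cadherin, 11 type II cadherins, 2 other cadherins, 11 protocadherins, 3 contactins, 3 contactin-associated proteins, 6 neurexins and neuroligins, 3 LRRTM genes, 6 SLITRK genes, 4 teneurins and 3 CADM genes. RNA came from the ventromedial telencephalon, a forebrain region, of 121 songbirds, 61 females and 60 males of 10 species. The labels give no genetic change and no agent for any group, and all birds were adults of the Midwestern United States taken in the period of territory and nest building, ahead of egg laying. In each of 5 families an obligate cavity nester, which breeds only in holes, was set beside a relative with a more flexible habit. The obligate nesters were Tree Swallow (13 birds) in Hirundinidae, Prothonotary Warbler in Parulidae, Eurasian Tree Sparrow in Passeridae, House Wren in Troglodytidae and Eastern Bluebird in Turdidae (12 birds each). Barn Swallow, Yellow Warbler and American Robin were the open-cup partners, and House Sparrow and Carolina Wren the facultative ones (12 birds each, 6 of each sex as in the other species, except that Tree Swallow had 7 females).

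Classical cadherins bind the same cadherin on the facing cell and are tied inside the cell to the actin skeleton through catenins, and different neuron groups carry different combinations of them. Neurexins on the sending side of a synapse bind neuroligins and LRRTM proteins on the receiving side, while SLITRK proteins bind receptor tyrosine phosphatases and teneurins bind latrophilins. In songbirds, cadherins and protocadherins are known to mark the vocal nuclei of the forebrain.

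A bird's total count lay between 4526413 and 7549296, and the 53 genes together held 0.365% to 0.723% of a bird's counts. Neuronal markers were present in every bird, with SNAP25 between 813 and 2412 CPM (a gene's counts relative to the library's total, scaled for library composition), whereas TTR, the marker of choroid plexus, varied from 0 to 10934 CPM between birds. Only 2 of 8 listed oligodendrocyte markers had a row in the table. Libraries of 4 birds, House Sparrow female 3, Eastern Bluebird male 12 and females 3 and 4 of Barn Swallow, correlated with their own species and sex at medians of only 0.860 to 0.896. Reads of CHD1W, a female-limited gene, were also counted in some males, as in Tree Swallow male 7 (18.4 CPM) and Eastern Bluebird male 13 (10.1 CPM), while others had 0. CHD1W went against the sex label in 2 Carolina Wren libraries, the one labelled male 3 with 67.7 CPM and the one labelled female 1 with 8.37 CPM. All 6 stayed in the tests under their labels. The number of adhesion genes that passed each test was also taken without them. Other counts, such as those of overlap, fold size, role groups and lists, were not. Nothing in the sources used here says how well the reads of each species matched the reference, so the part of mapping in any difference between species was not tested. In bulk tissue, fewer cells of a type and less RNA per cell cannot be told apart. The labels do not tie birds to broods, sites or days, so p-values of tests on birds measure the spread between these birds. Those of tests on species means measure the spread between species.

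The larger part of the variation of these genes lay between families and between the 2 species of a family, as for the genes at large. Family took a median of 36.5% of the variance of log2 CPM, the species within a family 22.1% and sex 0.0554%. The rest had a median of 33.6%. It held the spread among birds of the same species and sex and any sex difference that varied by species. Over all genes the medians were 40.5%, 21.3%, 0.126% and 28.8%. TENM4, a teneurin, had the highest share between the species of a family, 82.7%, with a rest of 3.60%. CDH11 and CDH9, both type II cadherins, followed with 76.0% and 60.0%. At the other end stood NLGN4X, a neuroligin, with 2.12% between species of a family.

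**Figure D1:**
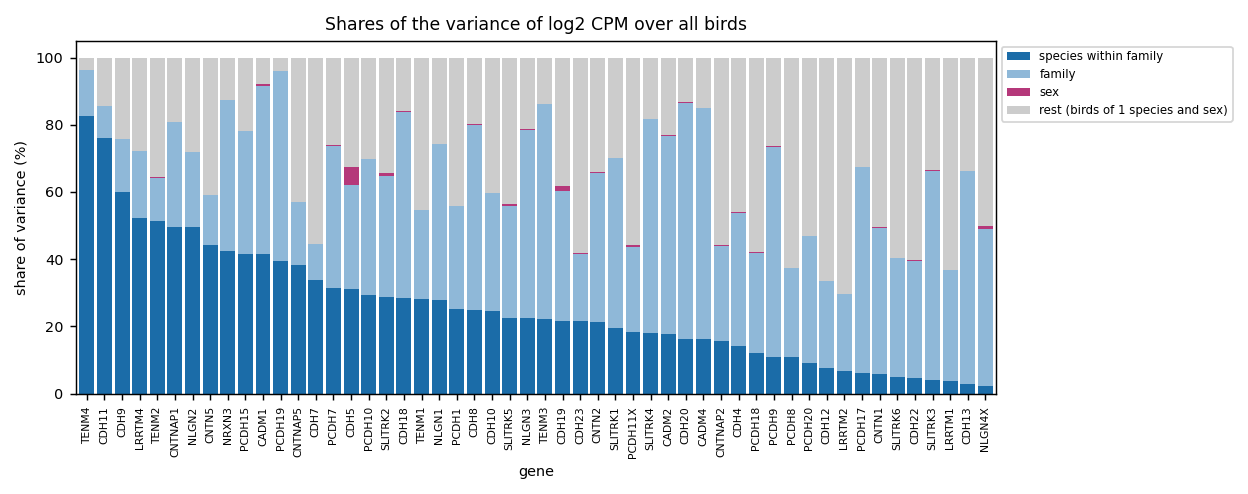
Stacked shares of the variance of log2 CPM (percent, vertical axis) for 52 adhesion genes (horizontal axis) over 121 birds: family, species within family, sex, and the rest. The rest holds the spread among birds of the same species and sex and any sex difference that varies by species. TENM4 has 82.7% between the species of a family and a rest of 3.60%, and CDH5 has the largest share for sex, 5.60%.

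The species means of a gene also differed by very unequal factors. The highest species mean was 1.45 times the lowest for CDH12, 1.53 times for LRRTM1, 1.56 times for NLGN4X and 1.64 times for CNTN1. It was 5.97 times the lowest for CDH18, 6.81 times for NLGN2, 10.9 times for TENM4 and 34.3 times for CADM4. PCDH19, at 0 in 12 of 13 Tree Swallows, exceeded these and is given with its counting interval among the protocadherins. CNTN1, which with its partners organises the contact between axon and myelin, had 598 to 1278 CPM (median 933) in House Sparrows, the lowest species, and 1246 to 1833 CPM (median 1538) in Barn Swallows, the highest. NLGN4X had 61.8 to 115 CPM (median 86.6) in Eurasian Tree Sparrows and 114 to 185 CPM (median 129) in Tree Swallows, with birds of these extremes touching only at the edge of their ranges.

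The first question was which of the genes differ between the obligate cavity nester and its relative, tested in each family with edgeR at an adjusted p under 0.05 over all genes. All differences below are log2 of obligate nester over partner, with the standard error (SE). For edgeR the SE was derived from the log2 difference and the F statistic of its test. In Hirundinidae 34 of 52 tested adhesion genes differed, 16 higher and 18 lower in Tree Swallows, against 54.4% of all genes, 25.8% higher and 28.5% lower. In Parulidae it was 25 of 53, 11 higher and 14 lower (all genes 55.4%, of which 28.1% higher and 27.3% lower), and with scaling by library size alone it was 9 higher and 24 lower. Passeridae had 26 of 53, 13 in each direction (all genes 49%, with 24.2% higher and 24.8% lower), or 8 higher and 18 lower with library size alone. In Troglodytidae 25 of 53 differed, 12 higher and 13 lower (all genes 56.9%, with 30.7% higher and 26.2% lower), or 9 and 17 with DESeq2 size factors and 9 and 15 without mitochondrially encoded genes. Turdidae had 31 of 53, 21 higher and 10 lower in Eastern Bluebirds, where 56.3% of all genes differed, 28.5% higher and 27.7% lower. With the 12 males of Turdidae alone it was 19, of which 12 were higher and 7 lower. CADM4 was too low in swallows to be tested.

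Over the 5 families, 141 of 264 tests of an adhesion gene passed, 53.4%, against 54.4% of the tests of all genes, and the median size of the log2 difference was 0.31 against 0.35. At least 2-fold differences were found for 9 genes in Hirundinidae (14.7% of all genes), 5 in Parulidae (12%), 4 in Passeridae (12.4%), 1 in Troglodytidae (11.7%) and 7 in Turdidae (17.9%). The birds of the 2 species did not overlap at all for 9 genes in Hirundinidae, where 14.7% of all genes had no overlap, 7 in Parulidae (16.6%), and 6 in each of Passeridae (13.5%), Troglodytidae (17.6%) and Turdidae (14.6%). As shares of the adhesion genes, both kinds of count were above the background in Hirundinidae and below it in the other 4 families.

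The direction changed from family to family. CDH11, LRRTM4, PCDH7, TENM3 and TENM4 differed in all 5 families, which was 5 of the 52 genes tested in all families and 9.61% of all genes, and none of the 5 kept its direction (0.525% of all genes did). Of the 53 genes, 34 were higher in the obligate nester of one family and lower in that of another. A like count over all genes was not taken, so this number is not a trait of the adhesion genes. CDH23 and LRRTM4 were called in 1 direction in 4 families (6.28% of all genes). CNTN1, LRRTM1, NLGN4X and SLITRK3 passed in 0 families, as did 6.41% of all genes. In a fit over all birds, how far the obligate nester stood from its partner depended on family for 45 of 53 genes at an adjusted p under 0.05, against 89.5% of all genes, and for the same number at an unadjusted p under 0.05 (89.8%). The exceptions were CDH12, CDH13, CDH22, CDH23, CNTN1, LRRTM1, NLGN4X and SLITRK3.

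**Figure D2:**
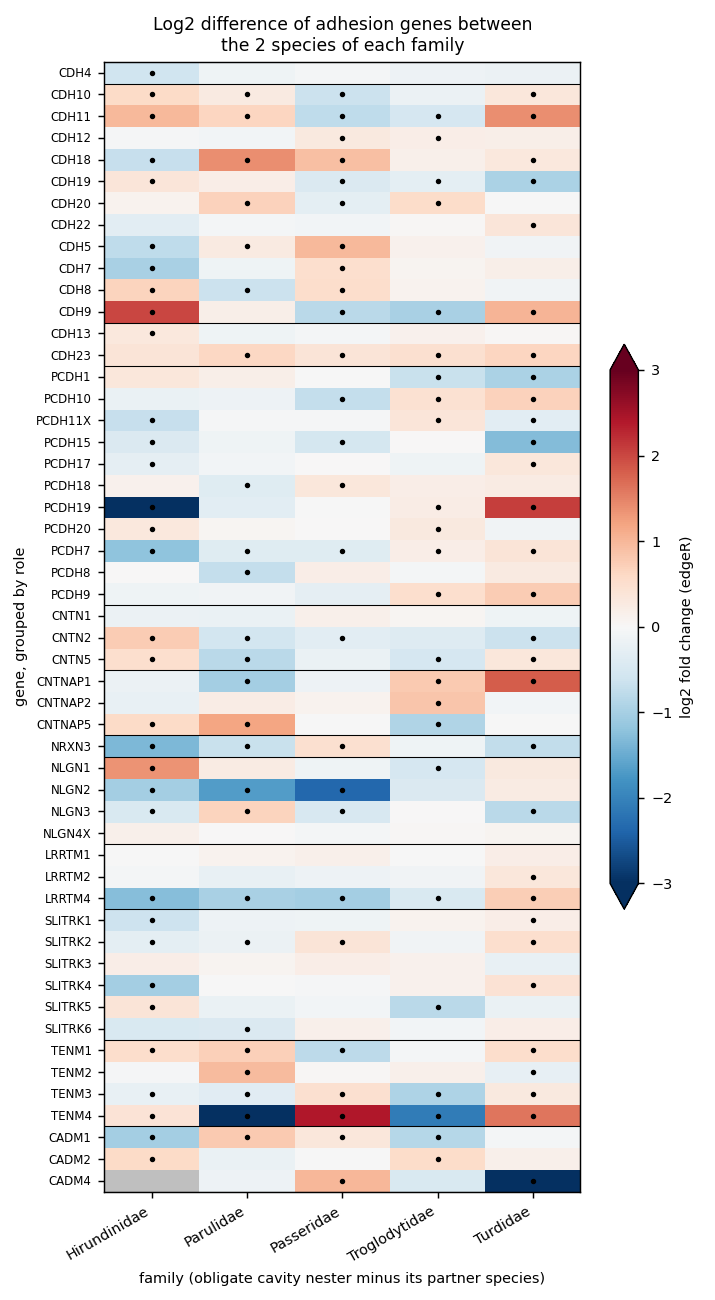
Log2 difference of obligate nester over partner (colour, limited to 3 in either direction) for 52 adhesion genes (rows, by role) in 5 families (columns), with a dot where edgeR's adjusted p was under 0.05 and grey where the gene was not tested. Dots mark 138 of the 259 tests drawn, 72 higher and 66 lower, and the rows of TENM4 and CDH11 have dots in every column with both colours.

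Among the type II cadherins, which sort neurons into groups, 35 of 55 tests (a gene in a family) passed, 22 higher and 13 lower. That was 63.6%, against 54.4% of the tests of all genes, of which 14447 were higher and 14158 lower. CDH11 was one of the clearest. In Turdidae it ran from 70.6 to 119.8 CPM (median 97.5) in Eastern Bluebirds and from 30.3 to 51.0 CPM (median 36.4) in American Robins. No robin reached the lowest bluebird (log2 1.39 ± 0.10, adjusted p 1.29e-12, edgeR). In Hirundinidae CDH11 was again higher in the obligate nester, at 62.0 to 105 CPM (median 81.4) in Tree Swallows and 32.3 to 52.9 CPM (median 38.3) in Barn Swallows, without overlap (log2 0.98 ± 0.09, adjusted p 7.79e-11, edgeR). Passeridae had the opposite order, with 37.3 to 62.5 CPM (median 52.1) in Eurasian Tree Sparrows and 63.7 to 107 CPM (median 85.1) in House Sparrows (log2 -0.76 ± 0.09, adjusted p 8.22e-08, edgeR). These sparrow ranges did not overlap either. The gene was also higher in Prothonotary Warblers (log2 0.65 ± 0.08) and lower in House Wrens (log2 -0.51 ± 0.08), with overlapping birds in both families.

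CDH9, which in mice takes part in forming mossy fibre synapses of the hippocampus, ran from 49.5 to 109 CPM (median 76.2) in Tree Swallows and from 5.70 to 27.4 CPM (median 19.6) in Barn Swallows. Every Tree Swallow was above every Barn Swallow (log2 1.99 ± 0.18, adjusted p 8.43e-11, edgeR). Its direction was reversed in House Wrens, which had 21.0 to 42.8 CPM (median 29.1) against 35.9 to 75.7 CPM (median 59.3) in Carolina Wrens (log2 -0.96 ± 0.12, adjusted p 8.86e-08, edgeR), and the wrens overlapped. It was lower in Eurasian Tree Sparrows too (log2 -0.82 ± 0.15) and higher in Eastern Bluebirds (log2 1.02 ± 0.16). CDH9 and CDH11 were thus called in the same direction in 4 families, and CDH9 did not pass in Parulidae (log2 0.18 ± 0.12).

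CDH18, another type II cadherin of the nervous system, stood at 17.9 to 42.4 CPM (median 26.7) in Prothonotary Warblers and 6.08 to 15.6 CPM (median 10.5) in Yellow Warblers, with every Prothonotary Warbler above every Yellow Warbler (log2 1.39 ± 0.15, adjusted p 1.08e-08, edgeR). In Eurasian Tree Sparrows it ran from 30.1 to 67.5 CPM (median 57.1) and in House Sparrows from 13.7 to 43.6 CPM (median 28.9), which overlapped (log2 0.89 ± 0.15, adjusted p 1.73e-05, edgeR). Tree Swallows had less than Barn Swallows (log2 -0.69 ± 0.10). CDH20 was higher in House Wrens, 76.7 to 122 CPM (median 91.8), than in Carolina Wrens, 52.6 to 77.2 CPM (median 65.7), with the ranges meeting only at their edges (log2 0.55 ± 0.07, adjusted p 7.12e-08, edgeR). CDH19, which in mice marks early Schwann cells, ran from 59.0 to 146 CPM (median 88.9) in Eastern Bluebirds and from 72.2 to 272 CPM (median 177) in American Robins, overlapping (log2 -0.96 ± 0.15, adjusted p 2.38e-06, edgeR). CDH8 was higher in Tree Swallows without overlap (log2 0.67 ± 0.09), higher in Eurasian Tree Sparrows (log2 0.54 ± 0.11) and lower in Prothonotary Warblers (log2 -0.64 ± 0.08). CDH10 was lower in Eurasian Tree Sparrows without overlap (log2 -0.65 ± 0.09), and CDH7, known from the chick spinal cord and neural crest, was lower in Tree Swallows (log2 -0.98 ± 0.12). The type I cadherin CDH4, R-cadherin, first described in chick retina, passed only in Hirundinidae, lower in Tree Swallows (log2 -0.60 ± 0.13).

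CDH5, the cadherin of the blood vessel wall, is grouped with the type II cadherins but is not neuronal. It ran from 19.1 to 31.3 CPM (median 24.8) in Eurasian Tree Sparrows and from 7.35 to 24.9 CPM (median 11.2) in House Sparrows (log2 0.98 ± 0.15, adjusted p 5.64e-06, edgeR), and the ranges overlapped. Of 7 measured endothelial and mural markers, 3 were also higher in Eurasian Tree Sparrows and 0 lower, where 24.2% of all genes were higher and 24.8% lower. Their median log2 difference was 0.17, and their summed level was 262 to 405 CPM against 165 to 311 CPM in House Sparrows. The part of vessel content in the CDH5 difference was not tested. In Tree Swallows CDH5 was lower (log2 -0.76 ± 0.12), where 2 of those markers were higher and 1 lower (all genes 25.8% and 28.5%).

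Protocadherins passed in 28 of 55 tests, 13 higher and 15 lower, a share of 50.9% that lay near the 54.4% of all genes. Those in the table are of the non-clustered kind, each from a gene of its own, and most act in the outgrowth and sorting of axons. PCDH19, mutations of which cause an epilepsy of girls in humans, held the widest contrast. It was counted 2 times in total over 13 Tree Swallows, with 12 of them at 0, and 1237 times over 12 Barn Swallows, which had 8.16 to 28.2 CPM (median 16.7). Barn Swallows had 649 times the Tree Swallow level, with a 95% interval of 179 to 5366 that covers counting error only. Whether Tree Swallow reads of this gene reached the table was not tested. In Turdidae the obligate nester was the higher one, with 25.0 to 86.9 CPM (median 44.2) in Eastern Bluebirds and 7.21 to 14.6 CPM (median 11.5) in American Robins (log2 2.07 ± 0.17, adjusted p 2.19e-11, edgeR). Every bluebird was above every robin. Eurasian Tree Sparrows and House Sparrows had PCDH19 means of 38.5 ± 10.1 and 38.1 ± 8.17 CPM (SD, n = 12 each), and the difference of -0.01 ± 0.13 (log2) did not pass.

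PCDH7, a protocadherin of neurons, differed in every family. It ran from 15.1 to 45.3 CPM (median 32.0) in Tree Swallows and from 46.8 to 90.7 CPM (median 69.4) in Barn Swallows, with no Tree Swallow reaching the lowest Barn Swallow (log2 -1.21 ± 0.12, adjusted p 1.23e-09, edgeR). In the other families the differences were small and the birds overlapped: log2 -0.37 in Parulidae, -0.36 in Passeridae, 0.20 in Troglodytidae and 0.38 in Turdidae. PCDH10, a protocadherin linked in mice to amygdala function and social behaviour, was lower in Eurasian Tree Sparrows without overlap (log2 -0.72 ± 0.07) and higher in House Wrens (log2 0.46 ± 0.09) and Eastern Bluebirds (log2 0.69 ± 0.14). PCDH1 stood at 25.1 to 53.7 CPM (median 35.0) in Eastern Bluebirds and 48.6 to 105 CPM (median 71.0) in American Robins, overlapping (log2 -0.95 ± 0.15, adjusted p 4.55e-06, edgeR). PCDH9 was higher in House Wrens (log2 0.51 ± 0.08) and in Eastern Bluebirds (log2 0.76 ± 0.13).

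PCDH15 and CDH23 are known as partners that bind each other in the tip links of hair cells in the inner ear, and both were detected in this forebrain tissue in every bird. PCDH15 ran from 14.8 to 43.8 CPM (median 26.4) in Eastern Bluebirds and from 50.3 to 79.2 CPM (median 66.4) in American Robins, and no bluebird reached the lowest robin (log2 -1.30 ± 0.14, adjusted p 4.31e-09, edgeR). It was also lower in Tree Swallows (log2 -0.42 ± 0.11) and Eurasian Tree Sparrows (log2 -0.52 ± 0.09). CDH23 went the other way. It was higher in Prothonotary Warblers (log2 0.62 ± 0.15, adjusted p 0.00111), Eurasian Tree Sparrows (0.38 ± 0.15, adjusted p 0.0379), House Wrens (0.47 ± 0.13, adjusted p 0.00337) and Eastern Bluebirds (0.65 ± 0.26, adjusted p 0.0329, all edgeR). In Tree Swallows the difference was 0.39 ± 0.19 and did not pass (edgeR, adjusted p 0.0813). CDH23 overlapped between the species of every family, as in Turdidae with 10.5 to 35.8 CPM (median 23.9) in Eastern Bluebirds and 5.51 to 23.1 CPM (median 15.6) in American Robins. CDH13, a cadherin anchored to the membrane by a lipid, passed only in Hirundinidae (log2 0.31 ± 0.10).

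Teneurins, large proteins that reach across the synapse to latrophilins, passed in 16 of 20 tests, 9 higher and 7 lower, which was 80% against 54.4% for all genes. TENM4 varied most among them from species to species. In Passeridae it ran from 161 to 289 CPM (median 232) in Eurasian Tree Sparrows and from 26.9 to 59.9 CPM (median 42.0) in House Sparrows (log2 2.41 ± 0.12, adjusted p 1.82e-15, edgeR). Turdidae had the same direction, 120.0 to 193 CPM (median 164) in Eastern Bluebirds and 39.1 to 65.5 CPM (median 53.4) in American Robins (log2 1.60 ± 0.09, adjusted p 9.15e-15, edgeR). The lowest bird of the obligate nester was above the highest partner in both families. Parulidae and Troglodytidae were the mirror image. Prothonotary Warblers had 20.2 to 36.6 CPM (median 24.8) and Yellow Warblers 171 to 282 CPM (median 202) (log2 -2.99 ± 0.11, adjusted p 1.44e-18, edgeR). House Wrens had 17.8 to 29.1 CPM (median 21.1) and Carolina Wrens 75.6 to 124 CPM (median 94.5) (log2 -2.09 ± 0.08, adjusted p 1.66e-17, edgeR). Again the 2 species of each family were fully apart. In Hirundinidae Tree Swallows had 78.5 to 134 CPM (median 107) and Barn Swallows 69.4 to 102 CPM (median 78.9), which overlapped (log2 0.41 ± 0.08, adjusted p 7.56e-05, edgeR).

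Ordered by mean TENM4, the species ran House Wren, Prothonotary Warbler, House Sparrow, American Robin, Barn Swallow, Carolina Wren, Tree Swallow, Eastern Bluebird, Yellow Warbler and Eurasian Tree Sparrow. Neighbours in this order overlapped, except that the highest robin, at 65.5 CPM, was below the lowest Barn Swallow, at 69.4 CPM. Below that gap stood 2 obligate nesters and 2 partners, and above it 3 of each. The gap was noticed after the values were seen.

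**Figure D3:**
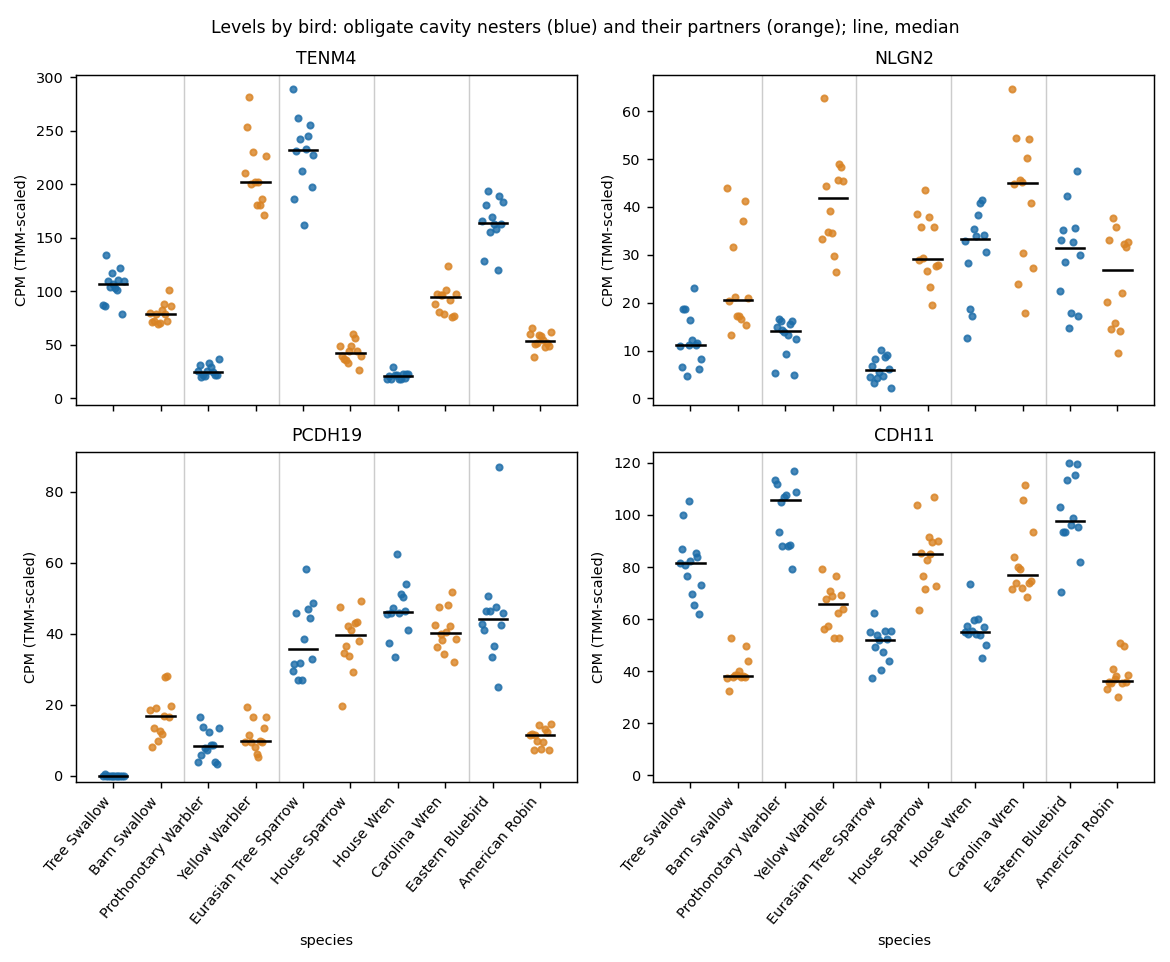
CPM of TENM4, NLGN2, PCDH19 and CDH11 (vertical axes) in each bird of the 10 species, obligate nesters in blue and partners in orange, with a line at the species median. TENM4 has a median of 202 CPM in Yellow Warblers against 24.8 CPM in Prothonotary Warblers, and the reverse order in sparrows; PCDH19 is at 0 in 12 of 13 Tree Swallows.

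TENM3, which guides the wiring of visual and hippocampal circuits in mice, was lower in House Wrens, 136 to 195 CPM (median 171), than in Carolina Wrens, 219 to 458 CPM (median 311), with no overlap (log2 -0.92 ± 0.09, adjusted p 7.48e-10, edgeR). The other families overlapped, with log2 differences of -0.23 in Hirundinidae, -0.33 in Parulidae, 0.48 in Passeridae and 0.28 in Turdidae. TENM2 was higher in Prothonotary Warblers, at 239 to 349 CPM (median 297), than in Yellow Warblers, at 113 to 184 CPM (median 152), and every Prothonotary Warbler was above every Yellow Warbler (log2 0.95 ± 0.07, adjusted p 7.52e-12, edgeR). So within Parulidae TENM2 and TENM4 stood in opposite directions. TENM1 was lower in Eurasian Tree Sparrows, 51.8 to 145 CPM (median 73.8), than in House Sparrows, 84.9 to 235 CPM (median 129), with overlap (log2 -0.78 ± 0.17, adjusted p 3.65e-04, edgeR). It was higher in the obligate nester of Hirundinidae, Parulidae and Turdidae (log2 0.53, 0.71 and 0.53).

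NRXN3, a neurexin and so a presynaptic hub of this network, ran from 72.4 to 111 CPM (median 88.3) in Tree Swallows and from 175 to 260.5 CPM (median 231) in Barn Swallows, fully apart (log2 -1.36 ± 0.07, adjusted p 1.28e-15, edgeR). It was also lower in Prothonotary Warblers (log2 -0.66 ± 0.08) and Eastern Bluebirds (log2 -0.74 ± 0.11) and higher in Eurasian Tree Sparrows (log2 0.49 ± 0.11).

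On the postsynaptic side, neuroligins passed in 9 of 20 tests, 2 higher and 7 lower, which was 45% against 54.4% for all genes. NLGN2, the neuroligin of inhibitory synapses, ran from 2.22 to 10.2 CPM (median 5.86) in Eurasian Tree Sparrows and from 19.5 to 43.5 CPM (median 29.1) in House Sparrows (log2 -2.36 ± 0.20, adjusted p 1.88e-10, edgeR). Prothonotary Warblers had 5.00 to 16.5 CPM (median 14.1) and Yellow Warblers 26.4 to 62.7 CPM (median 41.8) (log2 -1.67 ± 0.17, adjusted p 2.96e-09, edgeR). No obligate nester reached the lowest partner in either family. Tree Swallows were lower as well, with overlap (log2 -1.02 ± 0.24, adjusted p 7.64e-04, edgeR), and the values of -0.44 ± 0.21 in Troglodytidae and 0.25 ± 0.22 in Turdidae did not pass. NLGN1, the neuroligin of excitatory synapses, was higher in Tree Swallows, 56.0 to 91.4 CPM (median 66.5), than in Barn Swallows, 21.9 to 37.0 CPM (median 24.3), without overlap (log2 1.34 ± 0.10, adjusted p 1.15e-12, edgeR). Tree Swallows thus had more NLGN1 and less NLGN2 and NLGN3 (log2 -0.46 ± 0.14).

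Of the LRRTM genes, whose products are neurexin partners at excitatory synapses, LRRTM4 carried 5 of the 6 calls in 15 tests (40%, all genes 54.4%), with 1 higher and 4 lower. It ran from 31.8 to 60.0 CPM (median 54.5) in Eurasian Tree Sparrows and from 69.0 to 133 CPM (median 98.9) in House Sparrows, with no overlap (log2 -1.02 ± 0.12, adjusted p 3.24e-08, edgeR). Tree Swallows had 17.9 to 46.8 CPM (median 27.6) and Barn Swallows 32.9 to 118 CPM (median 70.0) (log2 -1.27 ± 0.18, adjusted p 4.93e-07, edgeR). Prothonotary Warblers had 32.8 to 61.6 CPM (median 52.7) and Yellow Warblers 58.8 to 124 CPM (median 97.2) (log2 -0.97 ± 0.10, adjusted p 2.58e-09, edgeR). Swallows and warblers overlapped, and House Wrens were lower by less (log2 -0.47 ± 0.11). Turdidae was the exception, with 33.6 to 94.0 CPM (median 56.4) in Eastern Bluebirds and 25.1 to 50.8 CPM (median 37.1) in American Robins (log2 0.74 ± 0.15, adjusted p 1.46e-04, edgeR). SLITRK genes passed in 11 of 30 tests, 5 higher and 6 lower (36.7%, all genes 54.4%). SLITRK4 was lower in Tree Swallows without overlap (log2 -1.02 ± 0.09) and higher in Eastern Bluebirds (log2 0.44 ± 0.12), and SLITRK5 was lower in House Wrens (log2 -0.81 ± 0.08).

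Contactins and contactin-associated proteins join axons to myelinating glia and to other axons, and passed in 8 and 7 of 15 tests each (53.3% and 46.7%, all genes 54.4%). CNTNAP1, Caspr, which forms the paranodal junction beside the node of Ranvier, ran from 166 to 378 CPM (median 276) in Eastern Bluebirds and from 47.2 to 104 CPM (median 73.7) in American Robins, with every bluebird above every robin (log2 1.81 ± 0.14, adjusted p 7.17e-12, edgeR). In Parulidae it was reversed, 63.8 to 136 CPM (median 114) in Prothonotary Warblers and 157 to 289 CPM (median 228) in Yellow Warblers, again apart (log2 -1.01 ± 0.12, adjusted p 6.74e-08, edgeR). House Wrens had more than Carolina Wrens, 97.9 to 214 CPM (median 184) against 61.8 to 161 CPM (median 103), with overlap (log2 0.78 ± 0.14, adjusted p 4.19e-05, edgeR). SOX10, a transcription factor of the oligodendrocyte lineage, passed only in Troglodytidae, lower in House Wrens (log2 -0.91 ± 0.15).

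CNTNAP2, Caspr2, which gathers potassium channels beside the paranode, passed only in Troglodytidae, with 122 to 241 CPM (median 152) in House Wrens and 69.0 to 129.6 CPM (median 89.2) in Carolina Wrens (log2 0.83 ± 0.12, adjusted p 6.77e-07, edgeR). The wrens overlapped. CNTNAP5 was lower in House Wrens, 64.1 to 112 CPM (median 89.4), than in Carolina Wrens, 128 to 264 CPM (median 158), without overlap (log2 -0.89 ± 0.11, adjusted p 7.33e-08, edgeR). It was higher in Prothonotary Warblers, 74.7 to 216 CPM (median 155), than in Yellow Warblers, 48.8 to 114 CPM (median 67.2), which overlapped (log2 1.17 ± 0.15, adjusted p 1.16e-07, edgeR). CNTN2, known in chick as axonin-1 and active in axon guidance, ran from 42.0 to 115 CPM (median 82.9) in Tree Swallows and from 32.7 to 68.9 CPM (median 45.8) in Barn Swallows, overlapping (log2 0.77 ± 0.15, adjusted p 4.30e-05, edgeR). It was lower in the obligate nester of Parulidae, Passeridae and Turdidae (log2 -0.56, -0.32 and -0.64). CNTN5 was lower in Prothonotary Warblers without overlap (log2 -0.81 ± 0.10).

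Of the CADM genes, CADM1 and CADM2 are synaptic and CADM4 is best known from the contact of myelinating glia with axons. They passed in 8 of 14 tests, 5 higher and 3 lower (57.1%, all genes 54.4%). CADM1 ran from 124 to 164 CPM (median 148) in Prothonotary Warblers and from 70.0 to 107 CPM (median 84.5) in Yellow Warblers, apart from each other (log2 0.78 ± 0.06, adjusted p 2.51e-11, edgeR). It was lower in Tree Swallows (log2 -1.01 ± 0.08) and House Wrens (log2 -0.85 ± 0.06), also without overlap. CADM2 was higher in House Wrens, 66.4 to 96.6 CPM (median 78.7), than in Carolina Wrens, 43.5 to 65.8 CPM (median 56.9), and every House Wren was above every Carolina Wren (log2 0.56 ± 0.06, adjusted p 3.36e-08, edgeR). CADM4 stood at 0.469 to 8.39 CPM (median 2.59) in Eastern Bluebirds and 8.55 to 52.7 CPM (median 25.7) in American Robins, with no overlap (log2 -3.05 ± 0.37, adjusted p 6.46e-08, edgeR). In Passeridae it ran the other way, from 5.98 to 24.0 CPM (median 14.5) in Eurasian Tree Sparrows and from 2.37 to 11.5 CPM (median 7.23) in House Sparrows, overlapping (log2 1.01 ± 0.23, adjusted p 5.69e-04, edgeR). Both swallows were near 0, at 0 to 1.37 CPM (median 0.976) in Tree Swallows and 0.324 to 3.10 CPM (median 0.761) in Barn Swallows.

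Nesting strategy is a property of the species, so the shared difference between obligate nesters and their partners was sought with limma between the 10 species means. The fit blocked on family and had 4 degrees of freedom left. None of the 53 genes passed at an adjusted p under 0.05, and neither did any of the 10648 genes tested. At an unadjusted p under 0.05 there were 2 adhesion genes, against 4.39% of all genes. A voom fit on birds, with a random effect of species, called 0 of the 53 and 326 of all genes. That fit used a single within-species correlation, 0.567, for every gene. Where a gene's own correlation is higher, birds of a species count as more independent than they are. The 326 are thus not shown to follow strategy. CDH23 had the smallest limma p. Its mean was higher in the obligate nester in 5 of 5 families, by log2 0.49, 0.58, 0.40, 0.42 and 0.74 from Hirundinidae to Turdidae in alphabetical order. The mean difference was log2 0.52 ± 0.16 (SE; limma p 0.0121, adjusted p 0.956). PCDH15, its partner in tip links, had the lower mean in the obligate nester of 5 of 5 families, with log2 differences from -1.33 in Turdidae to -0.02 in Troglodytidae, and a mean of -0.48 ± 0.23 (limma p 0.0734, adjusted p 0.956). In Troglodytidae edgeR's difference for PCDH15 had the other sign, at 0.02 ± 0.09, and did not pass. CDH4 also had the lower mean in 5 of 5 families, with log2 differences from -0.55 to -0.04. How many of all genes keep their sign in 5 of 5 families was not counted.

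NLGN2 was lower in 4 of 5 families, by as much as log2 -2.37 in Passeridae, and at 0.29 in Turdidae (mean -1.05 ± 0.38, limma p 0.0299, adjusted p 0.956). LRRTM4 was likewise lower in 4 of 5, with Turdidae at 0.70 (mean -0.61 ± 0.30, limma p 0.0870, adjusted p 0.956). CDH18 was higher in 4 of 5 families, with -0.67 in Hirundinidae (mean 0.39 ± 0.30, limma p 0.233, adjusted p 0.956). CADM2 was higher in 3 of 5 (mean 0.20 ± 0.19, limma p 0.335, adjusted p 0.956). The other 4 of these 6 genes each had at least 1 family with the opposite sign. The list's median mean difference was -0.03, against -0.01 over all genes.

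**Figure D4:**
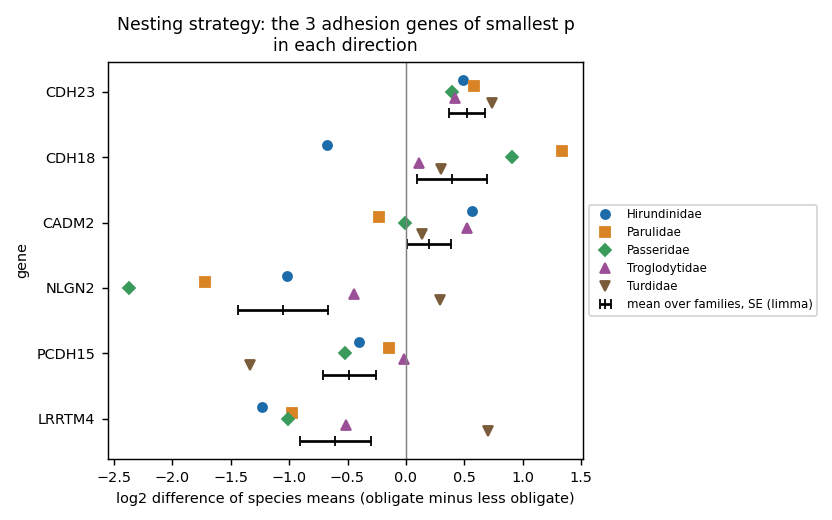
Log2 difference of the species means, obligate nester minus partner (horizontal axis), in each of 5 families (points) for 6 genes, the 3 with the smallest limma p in each direction, with the mean and its SE. CDH23 has all 5 points above 0 and PCDH15 all 5 below, while LRRTM4 and NLGN2 each have Turdidae on the other side of 0; no gene has an adjusted p under 0.05.

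Differences among families were tested on the same species means, so that a family's 2 species give its spread. No adhesion gene passed (limma, adjusted p under 0.05), against 1.81% of all genes, and 6 had an unadjusted p under 0.05, against 26.3% of all genes. CADM4 had the smallest p (0.0106, limma adjusted p 0.110), with means of 0.782 and 1.06 CPM in Tree and Barn Swallows and 18.4 and 20.9 CPM in Prothonotary and Yellow Warblers. It passed without Turdidae (limma adjusted p 0.0491) and in no other alternative (0.105 to 0.699). CDH13 was highest in swallows, 284 and 229 CPM, and lowest in warblers, 112 and 125 CPM (p 0.0241, limma adjusted p 0.143). SLITRK3, which in mice promotes inhibitory synapses, was highest in warblers, 201 and 191 CPM, where no other species mean exceeded 119.9 CPM (p 0.0224, limma adjusted p 0.140). CDH20 was lowest in Turdidae, 41.3 and 42.1 CPM (p 0.0436, limma adjusted p 0.181). PCDH9 was highest in House Wrens, 192 CPM, and lowest in American Robins, 55.7 CPM (p 0.0243, limma adjusted p 0.144). SLITRK6 was highest in swallows, 37.8 and 51.5 CPM (p 0.0466, limma adjusted p 0.185).

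Sex was tested on all birds in a fit that held a term for each species. Only CDH5, the vascular cadherin, passed among the 53 genes, against 5.21% of all genes, and 3 had an unadjusted p under 0.05 (10.6% of all genes). CDH5 was lower in males, with a log2 difference (male over female) of -0.26 ± 0.06 (edgeR, adjusted p 3.22e-04), where 1.06% of all genes were higher in females. The female mean was the higher one in 9 of 10 species. In Yellow Warblers females had 18.7 ± 3.88 CPM and males 12.7 ± 1.82 CPM (SD, n = 6 each). In Barn Swallows it was 37.2 ± 6.31 against 29.6 ± 2.89 CPM (SD, n = 6 each). Tree Swallows were the exception, with 19.6 ± 5.43 CPM in 7 females and 19.9 ± 3.54 CPM in 6 males (SD). Without the 6 libraries set apart the difference was -0.27 (edgeR, adjusted p 3.04e-05).

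Other vessel genes were looked at beside it. Of 7 endothelial and mural markers 1 was higher and 0 lower in males, with a median log2 of -0.12. The vascular growth factor receptor KDR was at -0.24 ± 0.09 and von Willebrand factor (VWF) at -0.17 ± 0.07, and neither passed. TEK, the angiopoietin receptor, was higher in males by 0.45 ± 0.07 (edgeR, adjusted p 1.96e-07). Without the libraries set apart, CLDN5, FLT1, KDR, PDGFRB, RGS5 and VWF were all lower in males, from -0.06 for PDGFRB to -0.26 for KDR. None of these passed, and TEK was at 0.46. No gene coordinates were at hand, so sex-linked genes were not told apart. The summed level of the markers was 165 to 549 CPM (median 319) in females and 179 to 426 CPM (median 302) in males. Their part in the CDH5 difference was not tested.

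**Figure D5:**
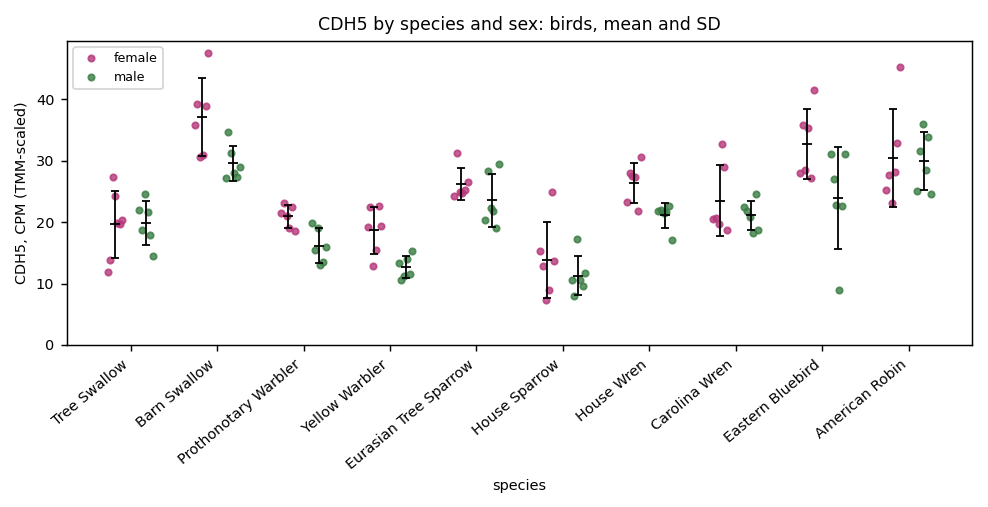
CPM of CDH5 (vertical axis) in females and males of each of the 10 species, with a point for each bird and the mean and SD. The female mean is above the male mean in 9 of 10 species, and in Tree Swallows the means are 19.6 and 19.9 CPM.

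No adhesion gene had a sex difference that depended on nesting strategy by edgeR's adjusted p, against 0.0563% of all genes. A DESeq2 fit called 0 as well, and 4 had an unadjusted p under 0.05 (6.39% of all genes). The smallest p belonged to CDH11, whose log2 difference of males over females in obligate nesters, relative to that in the other species, was -0.19 ± 0.07 (p 0.0108, edgeR adjusted p 0.777). SLITRK1 had -0.18 ± 0.07 (p 0.0117, edgeR adjusted p 0.777) and CDH19 -0.31 ± 0.12 (p 0.0133, edgeR adjusted p 0.777).

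Genes that work with these proteins were counted from lists of known roles, to be read against all genes, of which 24.2% to 30.7% were higher and 24.8% to 28.5% lower in a family. Of 10 measured cytoplasmic partners of cadherins, the catenins and their relatives, 5 were higher and 3 lower in Tree Swallows, and 7 higher and 1 lower in House Wrens. The counts were 2 higher and 3 lower in both Parulidae and Passeridae, and 2 higher and 4 lower in Turdidae. CTNND2, delta-catenin of dendrites, was lower in Prothonotary Warblers, Eurasian Tree Sparrows and Eastern Bluebirds (log2 -0.48, -0.98 and -1.43) and higher in Tree Swallows (0.32). Of 41 other genes of synaptic adhesion, 7 were higher and 17 lower in Tree Swallows, and 18 higher and 5 lower in Eastern Bluebirds, with list medians of -0.22 and 0.27. Medians of all genes tested lay between -0.02 and 0.02 in every family. Parulidae had 10 higher and 12 lower, Passeridae 12 and 10, and Troglodytidae 16 and 8. PTPRS and PTPRD, the receptor phosphatases that bind SLITRK proteins, passed in all 5 families, at log2 -1.32 for PTPRD in Hirundinidae and 2.32 in Turdidae.

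Of 26 scaffold and release-site proteins, 4 were higher and 11 lower in Tree Swallows and 4 higher and 13 lower in Eurasian Tree Sparrows, where 28.5% and 24.8% of all genes were lower. The remaining families had 4 and 8 (Parulidae), 8 and 8 (Troglodytidae) and 8 and 6 (Turdidae). By sex, 1 cytoplasmic partner, PKP4, was lower in males (log2 -0.12), and PTPRD (log2 0.64), HOMER1 and APBA1 were higher. Of all genes 5.21% passed by sex and 1.06% were higher in females, and sex-linked genes were not told apart here either. Among lists of cell types, 4 of 5 microglial markers were lower and 1 higher in Eastern Bluebirds, and 3 of 6 markers of excitatory pallial neurons were lower and 2 higher in House Wrens, where 27.7% and 26.2% of all genes were lower. The summed level of the latter had a median of 2030.1 CPM in Carolina Wrens against 741 CPM in House Wrens. In Turdidae, 2 of 4 markers of septum and hypothalamus were higher and 0 lower in bluebirds. They summed to a median of 188 CPM in bluebirds and 80.7 CPM in robins. These are only some of the contrasts of the cell type lists, and others had calls too. In Passeridae 3 of 4 septum and hypothalamus markers were higher and 0 lower. The same list had 1 higher and 1 lower in Hirundinidae, 2 and 1 in Parulidae, and 0 and 2 in Troglodytidae. In Turdidae 3 excitatory pallial markers were higher and 1 lower, and 0 endothelial and mural markers were higher and 3 lower. The part of cell composition and dissection in the differences of adhesion genes was not tested.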

How the data were processed

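RNA was isolated by phenol chloroform extraction and made into libraries with a TruSeq stranded mRNA kit, per the labels' protocols. The deposited table holds counts of reads per gene, as whole numbers, in 121 columns that were each matched to a labelled bird. Its gene column is headed as zebra finch proteins. Per the submitters' processing notes, Bowtie2 2.4.4 was used, with featureCounts (Subread 2.02z), SAMtools 1.10, fastp 0.20.1 and Trimmomatic 0.36. The reference, annotation, strand setting and treatment of reads with several matches were not given in the sources used here.

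Adhesion genes were taken by symbol, the cadherins as CDH followed by a number. The table also has 911 genes with no symbol, which could not be taken, so the set may miss members. The members, lists and tests were chosen with earlier results of these data known. In each family the counts were compared with edgeR 4.0.16 (R 4.3.3), by its quasi-likelihood test after filterByExpr and TMM scaling, with sex as a covariate. Sex, its interaction with strategy and the dependence on family used all birds. Strategy and family were tested with limma 3.58.1 on species means of log2 CPM (prior count 2). All p-values are two-sided and were adjusted over all genes (Benjamini-Hochberg), with a threshold of 0.05. CPM levels use TMM factors over all birds. The scripts were tested on simulated data. There the test of strategy found 0% of 1.5-fold, 25.4% of 2-fold and 75.8% of 4-fold changes. The test among families found 0% of 4-fold changes made in a single family. Few genes were changed in that simulation, which makes the adjusted threshold harder to pass. In the data 26.3% of all genes had an unadjusted limma p under 0.05 among families, and 1.81% passed. The 0% therefore does not measure the power of that test in the data. Genes that do not pass these tests are thus not shown to be equal.

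Alternatives were other scalings, DESeq2 1.42.0, no filter, each sex alone, a replicate block, each family left out, and leaving out the 6 libraries set apart, 4 of them with a median correlation under 0.9. Genes given by bird are, in each family, up to 4 highest and 4 lowest among those that passed; those called in all 5 families or in 1 direction in at least 4; 3 in each direction by p for strategy and 6 for families; and those called for sex, or 3 for the interaction. The results of 1 adhesion gene and 1 marker are not reported here by gene, though the counts include them. Aggression scores and testosterone were not analysed here. Figures used Python 3.11.15 with matplotlib 3.10.9.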

Additional observations from a re-analysis of the deposited data

Results flagged for a closer look

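The difference between the obligate nester and its partner depended on the family for 45 of the 53 adhesion genes in a test of that dependence over all birds. For the 5 genes that differed in every family, edgeR's adjusted p of the dependence was 1.29e-72 for TENM4, 4.75e-39 for CDH11, 7.26e-21 for TENM3, 2.42e-17 for LRRTM4 and 5.85e-16 for PCDH7. These genes were picked by calls from the same birds, and each had calls in both directions. The test was thus all but sure to pass for them and adds no further evidence. TENM4 was higher in the obligate nester in 3 families and lower in 2, as was CDH11, while LRRTM4 was higher only in Turdidae. Over all genes the dependence passed for 89.5%.

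Values far from the rest of their group were looked for in 38 groups of birds or species means, of which chance alone sets about 1 in 20 apart. In CDH5, Eurasian Tree Sparrow female 2 had 31.3 CPM, above the 5 other females of its species, and House Wren male 9 had 17.1 CPM, below the 5 other males. Tree Swallows had a mean log2 CPM of 4.87 for LRRTM4, below the other 4 obligate nesters.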

How the results depend on the processing

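Of 531 values of single genes under an alternative, 529 kept their side of the threshold and, where they had one, their direction, and 0 were reversed. Values for differences among families and for dependence on family have no direction and could not reverse. Most other genes were picked for large differences or lay far from the threshold, so few were likely to change. Of 83 counts taken over both directions, 80 stayed within 1.5 times the value reported. Counts for strategy, families and the interaction were 0 in the reported fits, and 0 against 0 was taken as kept. The exceptions among the counts were in Turdidae and among families. By direction, library size alone moved the lower calls in Parulidae from 14 to 24 and the higher ones in Passeridae from 13 to 8, and males only moved the lower calls in Parulidae to 9. With males only, 19 adhesion genes differed in Turdidae in place of 31, in a fit of 12 birds. Among families, 1 gene passed without Turdidae, CADM4, in place of 0. A fit with bird number and sex as a replicate block called 10 in Turdidae, where 0 female and 2 male numbers are shared between the species, so few birds inform it; PCDH15 did not pass there. The replicate block called 30 in Hirundinidae, 21 in Parulidae, 21 in Passeridae, 25 in Troglodytidae and 1 by sex. The numbers do not pair the birds: over 36 same-numbered pairs, mean correlations of deviations ran from -0.11 to 0.14 by family and sex. Scaling by library size alone moved the median log2 of all genes by -0.17 in Parulidae and -0.18 in Passeridae and by at most 0.05 in the other families. Without the libraries set apart, 36 genes differed in Hirundinidae, 26 in Passeridae, 25 in Troglodytidae and 30 in Turdidae, and no value of a single gene refitted without them lost its call. Strategy rests on 4 residual degrees of freedom, and CADM4 in swallows was too low to test at this depth.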
